A study of Mus musculus with 2 samples.

Results

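The cells described here are the 681 splenic CD8 T cells of 13620 that gave the largest share of their transcripts to 7 interferon-inducible GTPase genes. A cell was kept when its barcode had at least 500 genes and at most 10% mitochondrial UMIs (unique molecular identifiers, each standing for 1 captured transcript). The UMIs of Iigp1, Igtp, Tgtp1, Tgtp2, Gbp2, Gbp6 and Irgm1 were summed and divided by all UMIs of the cell, and the top 5% of all kept cells over both libraries became the members. The old recipient library held 393 members of 5619 kept cells and the young donor library 288 of 8001. The remaining 12939 kept cells are called the rest.

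The old recipient group was endogenous CD45.2+ CD3e+ CD8a+ spleen cells of wild-type C57BL/6J mice that had received total CD8 T cells at 24 months of age and were sampled at 25 months. The young donor group was CD45.1+ CD3e+ CD8a+ cells sorted from spleens of such recipients, descended from CD8 T cells of 3-month-old donors and recovered 1 month after transfer. All cells of both groups thus came from an aged host, and it is not stated whether 1 mouse or several gave the cells. Each group was 1 droplet library of 5′ transcript ends, so group and library cannot be told apart and no difference was tested. The groups also carry different CD45 alleles (CD45.2 and CD45.1), so differences linked to that locus cannot be told apart from group. All intervals are 95% intervals that cover counting error only.

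Interferon-γ binds a receptor of Ifngr1 and Ifngr2 chains, and its response genes often hold gamma-activated sites (GAS). Type I interferons bind Ifnar1 and Ifnar2 and act through a complex containing IRF9, which binds interferon-stimulated response elements (ISRE), sites that IRF1 can also bind. The products of the score genes are immunity-related GTPases (IRG) and guanylate-binding proteins (GBP). Both families include proteins that attack the vacuoles that hold intracellular pathogens, and their genes respond strongly to interferon-γ. Naive CD8 T cells carry little Ccl5, the transcript of a T cell chemokine that memory and effector cells store, so members with at least 10 Ccl5 UMIs (Ccl5-high, 162 cells) were described apart from those with at most 3 (Ccl5-low, 492 cells). The other 27 members lay between.

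The score genes sit at few loci of the GRCm38 genome. Igtp (chr11:58199556-58207591, plus strand), Tgtp1 (chr11:48985327-48994172, minus), Tgtp2 (chr11:49057194-49064206, minus) and Irgm1 (chr11:48861968-48871683, minus) share chromosome 11. Gbp2 is on chromosome 3 (chr3:142620602-142638008, plus), Gbp6 on chromosome 5 (chr5:105270702-105293698, minus) and Iigp1 on chromosome 18. Tgtp1 and Tgtp2 are near-identical copies. The annotation of Igtp overlaps that of Irgm2, and that of Tgtp1 overlaps Gm12185 (chr11:48904656-48992226, minus). The split of UMIs within each of these pairs is uncertain.

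RefSeq promoter windows of GRCm38.p6, which run 250 bases before to 50 bases after a gene's start, were found for 5 of the 7 score genes. They were searched on both strands for the GAS pattern TTCNNNGAA and the ISRE pattern of GAAA, any 2 bases and GAAA again, which do not overlap in the stretches shown. An ISRE match was found in 5 of 5, against 3.44% of all 32851 mouse windows, and a GAS match in 3 of 5, against 8.30%. Both stood in 3 of 5, against 0.454%. The stretches that follow, read 5′ to 3′ on the strand of the gene with matches in capitals, are shown because Igtp, Tgtp1 and Tgtp2 of the score and their relatives Irgm2 and Gm12185 share 1 layout, which is set beside those of Irgm1 and Gbp2.

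Igtp: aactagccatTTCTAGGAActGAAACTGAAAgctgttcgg
Irgm2: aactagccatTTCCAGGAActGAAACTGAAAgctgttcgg
Tgtp1: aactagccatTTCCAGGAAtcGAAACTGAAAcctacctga
Tgtp2: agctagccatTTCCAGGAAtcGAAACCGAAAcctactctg
Gm12185: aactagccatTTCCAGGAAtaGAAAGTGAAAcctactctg
Irgm1: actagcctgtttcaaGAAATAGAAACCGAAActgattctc
Gbp2: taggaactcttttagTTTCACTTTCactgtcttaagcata

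The stretches are chr11:58199501-58199540 (plus) for Igtp, chr11:58214892-58214931 (plus) for Irgm2, chr11:48992305-48992344 (minus) for Tgtp1, chr11:49064264-49064303 (minus) for Tgtp2 and chr11:48927239-48927278 (minus) for Gm12185. Those of Irgm1 and Gbp2 are chr11:48871426-48871465 (minus) and chr3:142620589-142620628 (plus). In the first 5 stretches a GAS match is followed by an ISRE match that begins 11 bases after the GAS begins. The GAS begins 45 bases before the RefSeq start in Igtp, 75 in Irgm2, 88 in Tgtp1, 81 in Tgtp2 and 86 in Gm12185. Irgm1 holds overlapping ISRE matches that begin 30 and 24 bases before its RefSeq start, and Gbp2 holds an ISRE on the reverse strand that begins 59 bases before. The GENCODE spans, used for the gene positions above, can start elsewhere. By them the stretches of Tgtp1, Irgm1, Irgm2 and Gm12185 lie inside the gene, and that of Gbp2 runs across its start. Among the other interferon-inducible GTPase genes with a window, 8 of 10 held an ISRE match and 5 of 10 a GAS match, and of the type I interferon response genes 20 of 36 held an ISRE match and 8 of 36 a GAS match. A match describes letters and is not evidence of binding.

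The libraries held 41504941 UMIs in 6174 barcodes (old recipient) and 65006187 UMIs in 8588 barcodes (young donor). Members held 2690480 and 2159044 UMIs, so that 1 UMI was 0.372 and 0.463 CPM (UMIs of a gene per 1000000 UMIs of the same cells). Median depth was 7030 UMIs in recipient members against 7049 in the recipient rest, and 7537.5 in donor members against 7951 in the donor rest. There were 105 barcodes present in both libraries, of which 65 were kept and 8 were members, and leaving them out moved no result by more than the counting error or the limit set for counts.

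The median member of the recipient carried 10 score UMIs (range 1 to 28) and one of the donor 10.5 (2 to 35), against medians of 2 and 1 in the rest. Per 10000 UMIs this was a median of 13.4 (10.5 to 66.1) in recipient members and 13.8 (10.5 to 68.1) in donor members, against 2.47 and 1.96 in the rest. The lowest-ranked members stood at 10.57, 10.55 and 10.54 per 10000 and the first cells outside at 10.53, so the cut lies within a continuous range and does not bound a cell type. A cell at the cut could rest on few molecules: the last 3 members inside it held 5 of 4732, 6 of 5688 and 10 of 9485 UMIs. The transcripts of members were spread over the score genes, with at least 4 of the 7 detected in 74.0% of recipient and 77.8% of donor members. Only 6 recipient members had UMIs of a single score gene. In the rest at least 4 were detected in 8.96% and 7.0% of cells. The summed UMIs of these genes chose the members, so the contrast with the rest is a description.

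Igtp, an IRG protein without which mice lose control of Toxoplasma, supplied the largest share of the members' score UMIs, 26.8% among recipient members and 28.6% among donor members. It had 393 CPM in recipient members against 71.4 in the recipient rest, and 440 CPM in donor members against 61.4 in the donor rest. Iigp1, an IRG GTPase that loads onto parasite vacuoles, had 51.7 against 5.49 CPM in the recipient and 50.0 against 3.01 CPM in the donor. These values chose the members and are a description. With members chosen on the other 6 genes each time, every score gene was higher in them than in the rest, with log2 ratios between 1.23 and 2.68 in the recipient and between 1.63 and 3.71 in the donor. The lowest of these were those of Gbp2, at 1.23 (1.05 to 1.41) and 1.63 (1.45 to 1.81), and the highest those of Iigp1, at 2.68 (2.34 to 3.01) and 3.71 (3.34 to 4.07). From 525 of the 681 members (77.1%, with Igtp left out) to 647 (95.0%, with Iigp1 left out) were chosen again in this way. With Tgtp1 or Tgtp2 left out, its near-identical copy stayed in the score, so the ratios of these 2 genes are not independent of the choice.

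**Figure D1:**
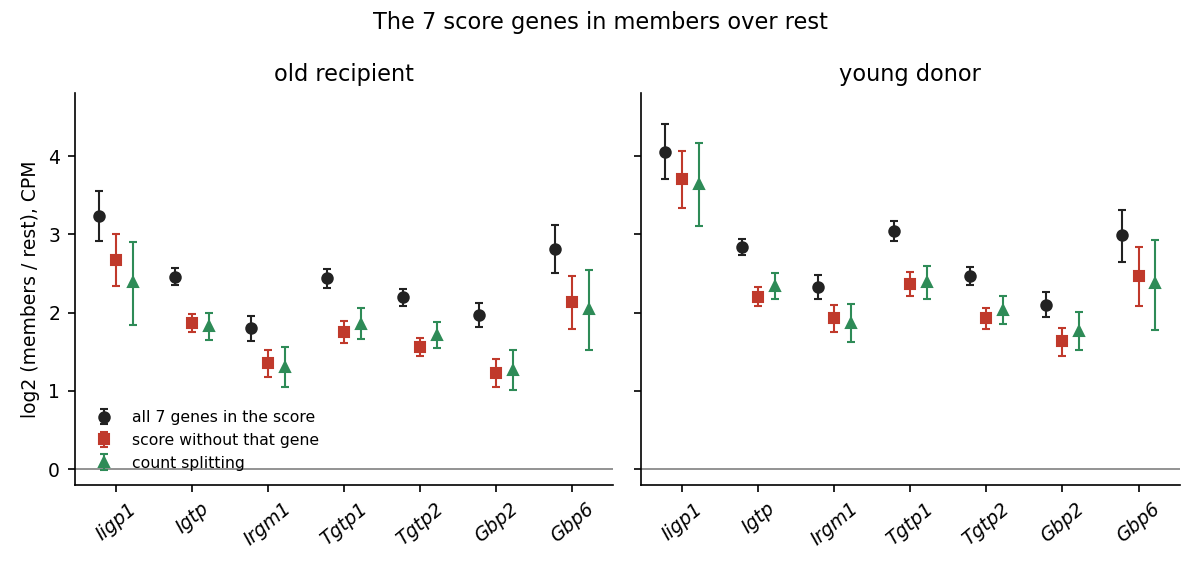
Log2 ratio of members over the rest for each score gene in each library, with members chosen on all 7 genes, without the gene plotted, or on one part of each cell's UMIs and measured on the other (count splitting). Bars are intervals for counting error; without the plotted gene the ratios run from 1.23 to 2.68 in the recipient and from 1.63 to 3.71 in the donor.

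The old recipient library gave a larger share of its cells to the members than the young donor library. Members were 6.99% (6.34 to 7.69) of recipient cells and 3.6% (3.20 to 4.03) of donor cells, a log2 ratio of 0.96 (0.74 to 1.18). The ratio was smaller in the Ccl5-high and Ccl5-low classes taken singly. Among Ccl5-high cells, 71 of 2631 recipient cells (2.70%, 2.11 to 3.39) and 91 of 5542 donor cells (1.64%, 1.32 to 2.01) were members, a log2 ratio of 0.72 (0.25 to 1.18). Among Ccl5-low cells, 306 of 2797 recipient cells (10.9%, 9.81 to 12.2) and 186 of 2184 donor cells (8.52%, 7.38 to 9.77) were members, a log2 ratio of 0.36 (0.09 to 0.63). Of the few cells with intermediate Ccl5, 16 of 191 in the recipient (8.38%) and 11 of 275 in the donor (4.00%) were members. Had the recipient held the Ccl5 classes in the donor's proportions, with its own share of members in each, 5.14% of its cells would have been members. When cells were thinned to 3500 UMIs and re-ranked, the log2 ratio was 1.51. This left out 500 recipient cells (36 of them members) and 463 donor cells (18 of them members) that held fewer UMIs.

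In both libraries Ccl5-high cells were under-represented among members. They made up 18.1% of recipient members against 49.0% of the recipient rest, and 31.6% of donor members against 70.7% of the donor rest. Ccl5-low cells made up 77.9% of recipient members against 47.7% of the rest, and 64.6% of donor members against 25.9% of the rest. Ccl5-high members were shallower than other Ccl5-high cells, with median depths of 4666 against 5842.5 UMIs in the recipient and 5657 against 7896 UMIs in the donor. Ribosomal protein genes took 30.5% and 33.5% of the UMIs of Ccl5-high members in the recipient and the donor, and 39.1% and 39.7% of those of Ccl5-low members. With cells thinned to 3500 UMIs, Ccl5-high cells were 15.35% of recipient members and 21.76% of donor members.

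**Figure D2:**
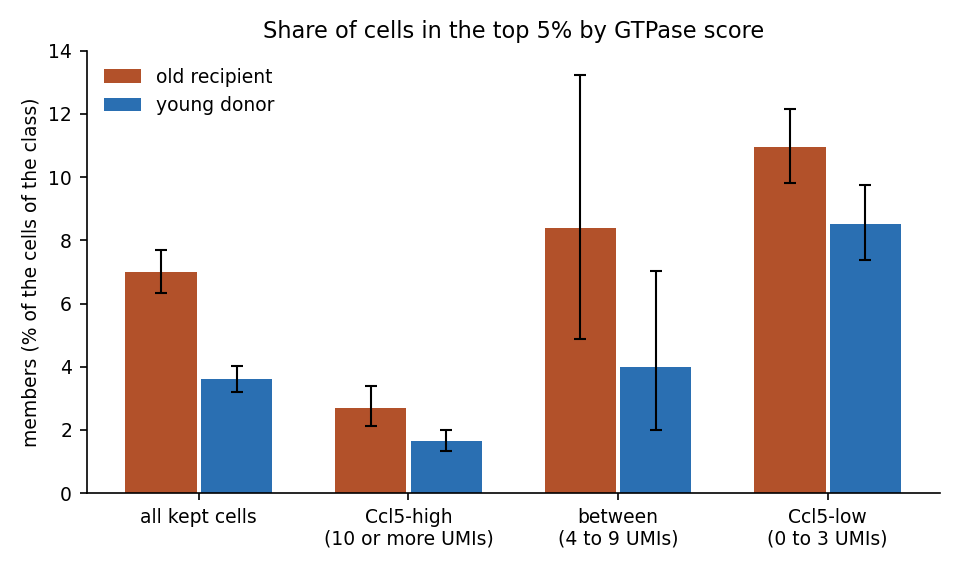
Members as a percentage of all kept cells and of each Ccl5 class, old recipient left of young donor, with exact binomial intervals. Both libraries have their highest shares among Ccl5-low cells, at 10.9% and 8.52%, and the recipient bar is higher in each class, with overlapping intervals among cells with intermediate Ccl5.

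Outside the score, members carried more transcripts of other interferon-inducible GTPases and of the type I interferon response, and fewer of several memory genes. A gene was called when its CPM in members and in the rest differed by more than 1.5-fold in the same direction in both libraries, among genes whose CPM averaged at least 20 over both. Of 4379 such genes, 58 (1.32%) were higher and 33 (0.754%) lower in members. The 58 included the 7 score genes, 6 other interferon-inducible GTPases and 23 type I interferon response genes, and 15 were in no list. Members were chosen on related transcripts, so these counts describe them and nothing is read from the contrast with the background. Within single libraries 1.66% of genes were higher and 1.75% lower in recipient members, and 2.48% and 1.57% in donor members.

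**Figure D3:**
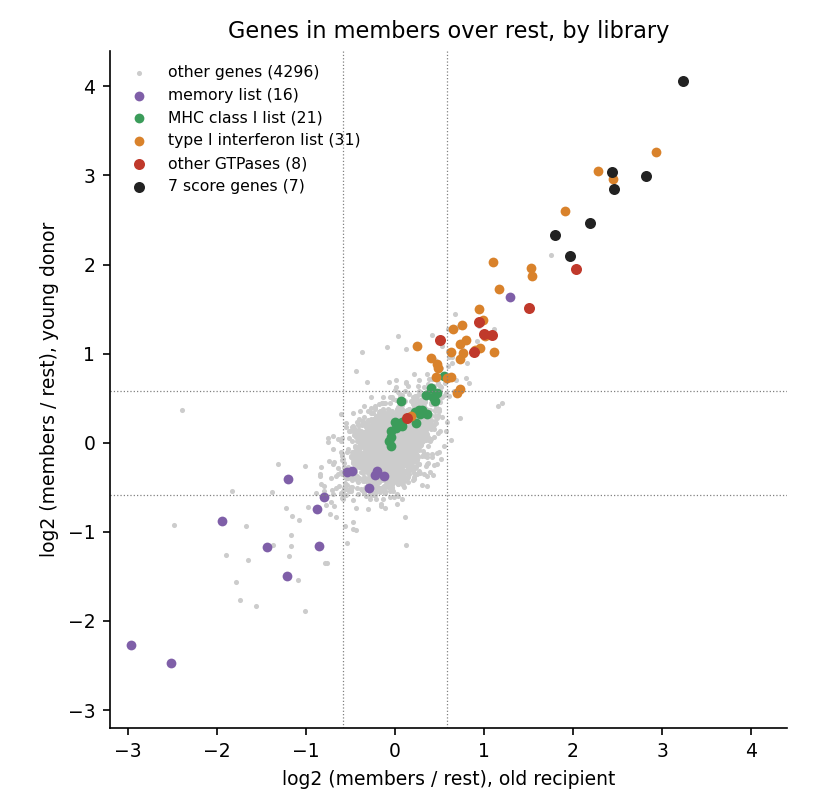
Log2 ratio of members over the rest in the old recipient (horizontal) and the young donor (vertical) for the 4379 genes, coloured by gene list, with dotted lines at 1.5-fold. Score genes and interferon lists spread to the upper right, and memory genes mostly to the lower left.

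Of the 19 other interferon-inducible GTPases, 8 were abundant enough to be called, and 6 of these 8 were higher in recipient members and 7 of 8 in donor members. The list as a whole had 951 CPM in recipient members against 467 in the rest (log2 1.03, 0.97 to 1.09), and 965 CPM in donor members against 428 in the rest (1.17, 1.11 to 1.24). Its most abundant member, Ifi47, an IRG GTPase, had 449 against 223 CPM in the recipient and 483 against 207 CPM in the donor. Irgm2, a regulatory IRG protein whose promoter stretch has the layout of that of Igtp, had 40.5 against 9.90 CPM and 36.6 against 9.47 CPM. Gbp4, a guanylate-binding protein, had 111 against 38.9 CPM and 97.7 against 34.4 CPM. Gbp7, Gbp8 and Gbp9 were also higher in both libraries, whereas Gbp3 passed 1.5-fold in the donor alone, with log2 ratios of 0.51 in the recipient and 1.15 in the donor.

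Irf1, an interferon-induced factor that binds ISRE sites, had 274 against 176 CPM in the recipient and 306 against 164 CPM in the donor. Parp9, which binds the ubiquitin ligase Dtx3l in interferon responses, had log2 ratios of 1.11 and 1.27. Cd274, which encodes the checkpoint ligand PD-L1, stayed below the abundance limit, with 71 UMIs in old recipient and 60 in young donor members and log2 ratios of 1.5 and 1.73.

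Of the type I interferon response list, 24 of 31 measured genes were higher in recipient members and 30 of 32 in donor members, with medians of 0.76 and 1.10 on the log2 scale. The medians over all genes tested were -0.0145 and -5.08e-06. Ifit1, which binds RNA that lacks cap methylation, had 76.2 CPM in recipient members against 10.0 in the rest, and 80.1 CPM in donor members against 8.33 in the rest. These transcripts came from a minority of members, 69 in the recipient and 62 in the donor. Isg15, a ubiquitin-like modifier, had 175 against 36.0 CPM in the recipient and 244 against 29.6 CPM in the donor. Bst2, the tetherin that holds virions at the cell surface, had 222 against 127 CPM and 282 against 127 CPM. Usp18, which removes Isg15 from proteins and dampens the type I receptor, had log2 ratios of 1.53 and 1.96, and Shisa5, at the low end of the list, 0.18 and 0.30.

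Receptor chains and class I presentation genes differed less. Of the receptor and signalling list, 2 of 13 measured genes were higher in recipient members and 2 of 14 in donor members, with medians of 0.05 and 0.12. Irf9, the DNA-binding subunit of the type I interferon complex, had 76.2 against 44.7 CPM in the recipient and 87.5 against 39.7 CPM in the donor. Ifngr1, the ligand-binding chain of the interferon-γ receptor, had 167 against 194 CPM and 192 against 224 CPM, log2 ratios of -0.22 in both. Within the Ccl5-high class Ifngr1 had 0.003 and -0.08, and within the Ccl5-low class -0.03 and -0.09, with each interval across 0. Among 21 genes of MHC class I and antigen processing, 0 were called in both libraries, with medians of 0.24 and 0.32. Tap1, a subunit of the peptide transporter, had log2 ratios of 0.56 and 0.75, and H2-K1, a class I heavy chain, 0.01 and 0.17. Within the Ccl5-high class H2-K1 had 0.30 and 0.44, and within the Ccl5-low class 0.12 and 0.07.

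Few members held interferon transcripts. Ifng had 16 UMIs in 12 recipient members (5.95 CPM, against 14.4 in the rest) and 22 UMIs in 16 donor members (10.2 CPM, against 10.6), and all of them were in Ccl5-high members. Within that class it had 38.3 against 31.0 CPM in the recipient (log2 0.31, -0.51 to 1.02) and 36.7 against 14.4 CPM in the donor (1.36, 0.67 to 1.97). Ifnb1, Ifna2 and Ifna4, type I interferon genes, had 0 UMIs in members of either library, which allows up to 1.12 CPM in the recipient and 1.39 CPM in the donor.

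Among memory genes, 8 of 16 were lower in both libraries and 1 was higher. Gzmm, a granzyme, had 6.69 CPM in recipient members against 38.1 in the rest, and 18.5 CPM in donor members against 103 in the rest. Xcl1, a chemokine for cross-presenting dendritic cells, had log2 ratios of -2.97 and -2.27, and Cd44, a hyaluronan receptor, -1.21 and -1.5. The exception was Ly6a (Sca-1), a surface protein that interferon induces, with 386 against 157 CPM in the recipient and 463 against 148 CPM in the donor. Igfbp4, a marker of naive cells, had 508 against 318 CPM and 339 against 124 CPM. The larger Ccl5-low share of members moves with these ratios, and some of them also stood within the classes. Within the Ccl5-high class Gzmm had log2 ratios of -1.19 and -1.55, Xcl1 -1.56 and -0.96, and Cd44 -0.24 and -0.96. Within the Ccl5-low class Xcl1 had -3.36 and -2.72, on 4 UMIs in the members of each library.

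Outside the lists, the named genes with more transcripts in members included Ramp1, a co-receptor for the neuropeptide CGRP, with 89.2 against 46.5 CPM in the recipient and 40.8 against 16.5 CPM in the donor. Pml, which builds nuclear bodies, had log2 ratios of 0.92 and 1.14, Ppa1, an inorganic pyrophosphatase, 0.82 and 0.90, Ifi208, of the interferon-inducible p200 family, 0.76 and 1.04, and Trafd1, a regulator of innate signalling, 0.71 and 1.30. Helz2, Mov10, H2-DMa, Rgcc, Ifi214, Plac8 and Phf11c lay between 0.60 and 1.03. The named genes with fewer transcripts were Plek, a target of protein kinase C, with ratios of -1.74 and -1.77, and Ctla2a, a cysteine protease inhibitor, with -1.56 and -1.83. The calcium-binding protein gene S100a6 had -1.89 and -1.25, Ccl5 itself -1.37 and -1.15, and Txndc5, Ahnak, Fcgrt and Nbeal2 lay between -1.04 and -1.54. The larger Ccl5-low share of members moves with these ratios too. Within the Ccl5-low class Ramp1 had 0.35 and 0.09 and Rgcc 0.14 and 0.02, whereas Pml had 0.93 and 0.75. Within the Ccl5-high class Ramp1 had 1.44 and 0.48, on 11 and 3 UMIs in members. There Ctla2a had -0.13 and -0.58, Plek -0.36 and -0.64 and S100a6 -0.94 and -0.07, whereas Fcgrt had -1.41 and -1.81.

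Members were CD8 T cells by their defining markers, with 0 of 6 T cell identity genes past 1.5-fold. The B cell marker Ms4a1 had 0 UMIs in members of both libraries and Cd79a 3 in the recipient and 1 in the donor. Ighm had 200 CPM in recipient members against 151 in the rest and 181 CPM in donor members against 133 in the rest. Markers Ly6g, Siglech, Flt3, Xcr1, Clec9a, Cd4 and Ncr1 were at 0 in members of both libraries. Lyz2 had 0 and 2 UMIs, Foxp3 7 and 0, and Trdc 4 and 2. Some other markers were found at few UMIs in Ccl5-high and Ccl5-low members, given in that order. Cd40lg, a CD4 T cell marker, had 3 and 5 in the recipient and 1 and 3 in the donor. Its CPM was above the rest in each class, with 7.19 against 0.70 in recipient Ccl5-high cells. Klrb1c of NK cells had 9 and 3 in the recipient and 0 in the donor. In the recipient S100a8 of neutrophils had 1 and 5, and Hbb-bs of red cells 7 and 7. Of the other myeloid markers, Cd68 was detected at few UMIs. Cst3 had 89.8 against 88.4 CPM in the Ccl5-low class of the recipient and 83.0 against 85.3 CPM in that of the donor. In the Ccl5-high class Cst3 had 115 against 111 CPM and 88.4 against 96.3 CPM.

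Within the Ccl5-high class the interferon gene lists stood higher in members than in other cells. Of 4446 genes measured there, 148 (3.33%) were higher in members and 21 (0.472%) lower in both libraries. The higher genes included 8 of 8 other interferon-inducible GTPases, 38 of 39 type I interferon response genes and 5 of 21 class I genes (H2-T22, H2-T23, Tap1, Tap2 and Tapbp). Isg15 had 568 against 42.3 CPM in the recipient and 569 against 29.5 CPM in the donor. Ifit1 had 300 against 12.4 CPM (125 UMIs) and 204 against 8.34 CPM (122 UMIs).

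Lists of effector and memory genes were mixed in the Ccl5-high class. Of 6 effector genes measured, 2 (Fasl and Gzmb) were higher in members of both libraries and 1 (Klre1, a lectin-like receptor) lower. Of 9 genes of the age-associated list 2 (Gzmk and Lag3) were higher, of 8 early activation genes 0 were called, and of 16 memory genes 1 (Ly6a) was higher and 3 (Gzmm, Ifitm10 and Xcl1) lower. Gzmb, the granzyme that activates caspases, had log2 ratios of 1.29 in recipient cells (65 UMIs) and 2.36 in donor cells (59 UMIs). Gzmk, a granzyme of age-associated CD8 T cells, had 0.75 and 1.14, Lag3, an inhibitory receptor, 0.93 and 1.44, and Fasl, a death ligand, 0.94 (0.25 to 1.55) and 0.71 (-0.01 to 1.35). Prf1, the pore-forming perforin, had -0.02 and -0.17, and Ccl4, a chemokine, -0.94 and 0.39. Cell cycle genes reached 916 CPM in donor Ccl5-high members against 435 in other donor Ccl5-high cells, but 331 of their 549 UMIs came from 1 member. Without that member the list had 381 CPM and a log2 ratio of -0.19 (-0.39 to 0.00), and in recipient Ccl5-high members it had 498 against 668 CPM.

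Within the Ccl5-low class fewer genes differed. Of 4168 genes measured, 35 (0.84%) were higher and 3 (0.072%) lower in members of both libraries. The higher genes included 6 of 7 other interferon-inducible GTPases, 13 of 25 type I interferon response genes and 0 of 21 class I genes. Ly6a had log2 ratios of 1.29 and 1.12 in the Ccl5-low class and 1.58 and 2.05 in the Ccl5-high class. None of 14 naive genes was called in the Ccl5-low class, where Igfbp4 had 590 against 556 CPM in the recipient and 468 against 393 CPM in the donor. In the Ccl5-high class 1 of 12 naive genes was higher in members (Igfbp4, with 101 against 51.3 CPM and 50.1 against 25.3 CPM) and 1 lower (Satb1, a chromatin organiser, with log2 ratios of -0.76 and -0.67).

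The classes reached the same score with different amounts of the other interferon transcripts. Score genes summed to 1483 CPM in Ccl5-high and 1465 CPM in Ccl5-low recipient members, and to 1554 and 1540 CPM in donor members, values that 1 common score cut constrains. Type I interferon response genes summed to 8772 CPM in Ccl5-high and 4126 CPM in Ccl5-low recipient members, and to 8951 and 4092 CPM in donor members. The log2 ratio of Ccl5-high over Ccl5-low members was 1.09 (1.03 to 1.14) in recipient cells and 1.13 (1.08 to 1.18) in donor cells, whereas in the rest it was 0.19 and -0.03. It stayed between 0.86 and 1.87 in recipient members and between 0.84 and 1.64 in donor members under 10 other choices of members. Ccl5-high members had a log2 ratio over other Ccl5-high cells of 1.42 (1.37 to 1.47) in recipient cells and 1.70 (1.66 to 1.74) in donor cells, and Ccl5-low members 0.52 (0.49 to 0.55) and 0.54 (0.50 to 0.58) over other Ccl5-low cells.

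**Figure D4:**
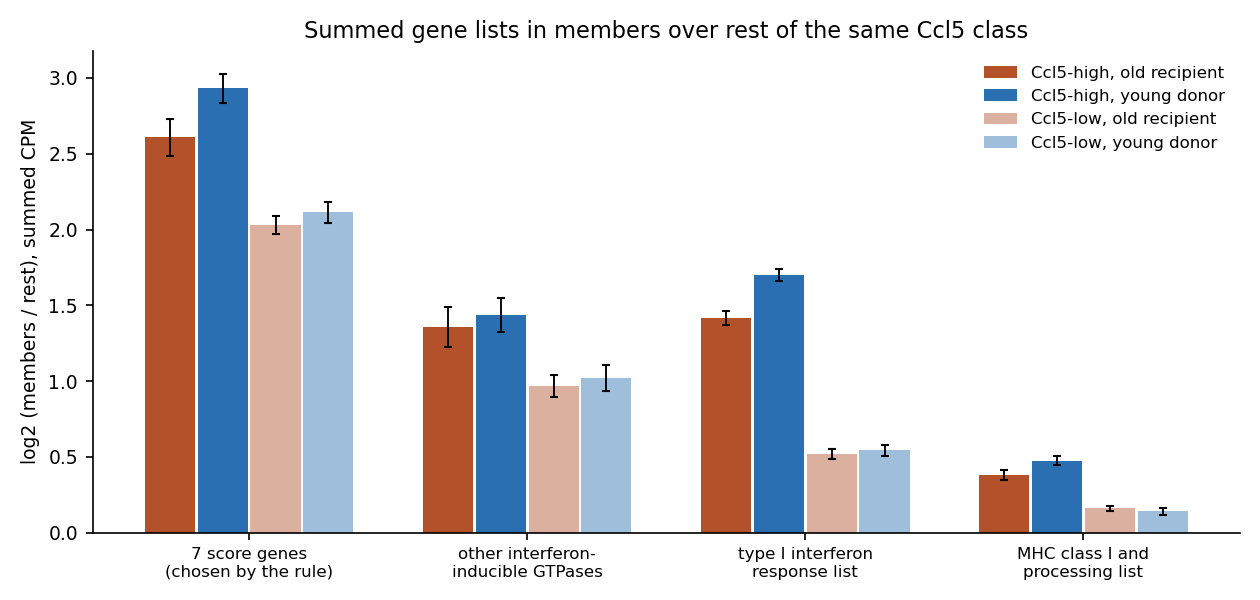
Log2 ratio of members over the rest for the summed UMIs of 4 gene lists, in Ccl5-high and Ccl5-low cells of each library, with intervals for counting error. The type I list is at 1.42 and 1.70 in the Ccl5-high class and at 0.52 and 0.54 in the Ccl5-low class, and the class I list stays at or below 0.47.

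The other GTPases and the class I list differed less between the classes of members than the type I list. Ccl5-high over Ccl5-low log2 ratios were 0.46 and 0.33 for the other interferon-inducible GTPases and 0.54 and 0.33 for the class I list. In the rest the corresponding ratios were 0.07 and -0.09, and 0.32 and 0.00. Cell cycle genes had 1.28 and 2.40 among members and 1.14 and 0.03 in the rest, and without the donor member that held most of them they stood at 381 CPM in Ccl5-high and 173 CPM in Ccl5-low donor members. The median over all genes was itself 0.21 in the recipient and 0.17 in the donor, beside the smaller ribosomal protein share of Ccl5-high members. Relative to that median the type I list stood at 0.87 and 0.96, the class I list at 0.33 and 0.16, and the score at -0.20 and -0.16.

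Cells high in the type I response were also more frequent among Ccl5-high members. When all kept cells were ranked by their share of type I response UMIs, 148 of the 681 members (21.7%, 18.7 to 25.0) were in the top 5%, against 533 of 12939 other cells (4.12%). The overlap was 31 of 71 Ccl5-high recipient members (43.7%, 31.9 to 56.0), against 7.23% of other Ccl5-high recipient cells, and 45 of 91 Ccl5-high donor members (49.5%, 38.8 to 60.1), against 3.67%. Among Ccl5-low members it was 48 of 306 in the recipient (15.7%, 11.8 to 20.3), against 3.33%, and 22 of 186 in the donor (11.8%, 7.56 to 17.4), against 2.70%. After thinning to 3500 UMIs the shares were 40.6% and 57.4% of Ccl5-high members and 14.8% and 12.6% of Ccl5-low members.

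**Figure D5:**
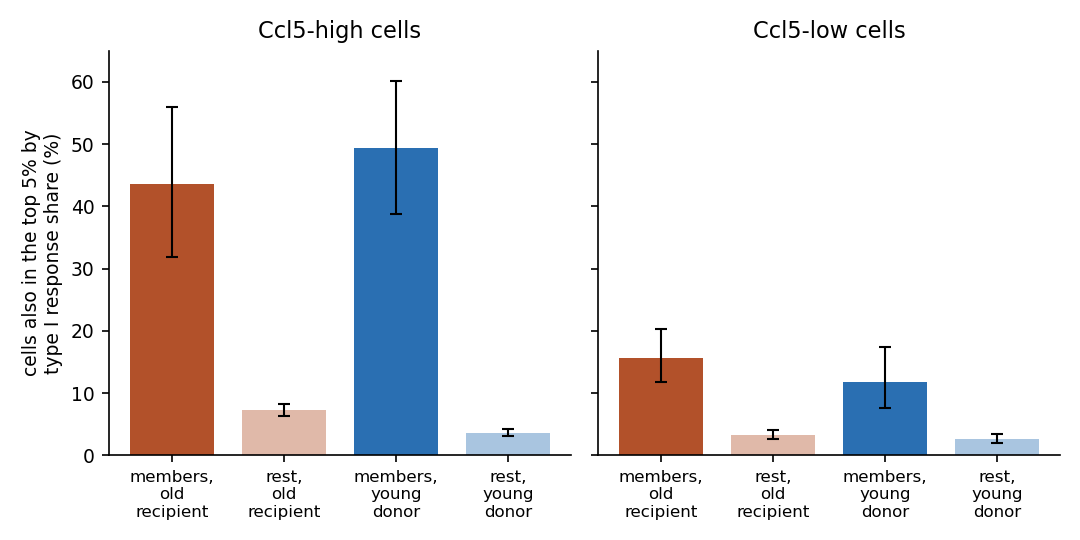
Percentage of members and of the rest that were also in the top 5% by type I interferon response share, for each Ccl5 class and library, with exact binomial intervals. Members are above the rest in each pair, with 43.7% and 49.5% of Ccl5-high members and 15.7% and 11.8% of Ccl5-low members.

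The core response transcripts were concentrated in few members. Of Ifit1, Ifit3, Isg15 and Rsad2 (viperin, a radical enzyme that blocks viral replication), at least 3 UMIs were found in 60 recipient members (15.3%, against 3.02% of the rest) and 61 donor members (21.2%, against 2.80%). These cells held 84.1% and 89.3% of the members' core UMIs, and 55.5% of recipient and 51.0% of donor members had none. Thinned to 3500 UMIs, the shares with at least 3 were 8.15% against 1.11% in the recipient and 14.8% against 0.970% in the donor.

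The genes with the largest ratios between the member classes were markers of the classes and core response genes. Of 4295 genes measured, 366 (8.52%) were higher and 63 (1.47%) lower in Ccl5-high members of both libraries, so 85.3% of calls were higher. In the rest 4.04% were higher and 1.13% lower. The split moved to 68.1% with median-of-ratios scaling (228 higher and 107 lower) and to 66.3% without ribosomal protein genes in the totals (331 higher and 168 lower). Ifit3 had log2 ratios of 3.47 in the recipient and 2.64 in the donor, against 0.97 and 1.19 in the rest. Ifit1 had 3.06 and 2.59, against 0.56 and -0.05 in the rest, and Isg15 2.41 and 2.22, against 0.45 and -0.04. Such ratios among members stood above those in the rest.

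Ctla2a, at 5.32 and 4.35 among members, had 4.63 and 3.19 in the rest. Eomes, a T-box factor of memory cells, had 3.33 and 2.29 against 2.78 and 2.04, and Anxa2, a membrane-binding annexin, 3.52 and 3.58 against 2.99 and 2.31. Gzmk was found almost entirely in Ccl5-high members, with 307 UMIs against 5 in Ccl5-low members of the recipient and 206 against 1 in the donor. Of the naive list, 12 of 15 genes measured in the recipient and 5 of 12 in the donor were lower in Ccl5-high members. Over all genes measured in a single library, 5.9% in the recipient and 4.6% in the donor were lower. Igfbp4 had -2.55 and -3.22, Ccr7, the lymph node homing receptor, -1.96 and -1.60, and Lef1, a factor of naive cells, -1.18 and -1.08, while Dapl1, another naive marker, had -0.94 in both libraries against -1.73 and -1.48 in the rest.

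Between old recipient and young donor members, the score genes and the other GTPases differed little. For the score genes 1 common cut constrains this, so their sums are a description. They summed to 1470 CPM in recipient and 1540 CPM in donor members, a log2 ratio of -0.07 (-0.13 to -0.00), and the ratio was -0.02 for other interferon-inducible GTPases. Type I response genes summed to 4812 CPM in recipient and 5414 CPM in donor members (-0.17, -0.21 to -0.13), with 6 of 38 lower and 0 higher. Within the Ccl5-high class this ratio was -0.03 (-0.09 to 0.03), and within the Ccl5-low class 0.01 (-0.04 to 0.06). In the rest it was 0.15. Ccl5-high cells, the class with the higher type I sum, were 18.1% of recipient members and 31.6% of donor members.

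For 12 of the 16 genes named between the libraries, members and the rest differed in the same direction. Differences shared by members and the rest can include ones linked to the CD45 locus, which was not tested. Of 4521 genes, 69 (1.53%) were higher and 63 (1.39%) lower in recipient members, against 0.791% and 0.549% in the rest. Izumo1r, a folate receptor family gene, had 107 UMIs (39.8 CPM) in recipient members and 20 UMIs (9.26 CPM) in donor members, a log2 ratio of 2.10 (1.40 to 2.87), with 2.05 in the rest. Within the Ccl5-low class Izumo1r had 2.24 (1.43 to 3.17) in members and 1.36 in the rest. In Ccl5-high members it had 0.20 (-2.13 to 2.42), on 4 and 5 UMIs, with 1.93 in the rest of that class. Ccr9, a gut-homing chemokine receptor, had 1.48, with 2.07 in the rest, and Ramp1 1.13, with 1.49. Gzma, a granzyme, had 1.77, with 2.20 in the rest, and its 89 and 21 UMIs came from 11 members in each library. Btg2, an antiproliferative gene, had 1.37, with 1.05 in the rest.

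Ifngr2, the signalling chain of the interferon-γ receptor, had 78 UMIs in recipient members and 25 in donor members, a log2 ratio of 1.32, with 1.13 in the rest. Within the Ccl5-low class Ifngr2 had 1.05 (0.37 to 1.78) in members and 0.29 (0.09 to 0.50) in the rest. Ccl5-high members held only 3 and 1 of its UMIs. Tspan32, a tetraspanin, had 1.27, with 0.81 in the rest. Trmt2a, a tRNA methyltransferase gene with 76 and 27 UMIs, had 1.18, with 0.11 in the rest. Lower in recipient members was Ctse, the aspartic protease cathepsin E, with 46 UMIs (17.1 CPM) in the recipient and 194 UMIs (89.9 CPM) in the donor, a log2 ratio of -2.39 (-2.89 to -1.92) and -2.17 in the rest. Fcgrt, the neonatal Fc receptor, had -1.32, with -1.77 in the rest. Cxcr3, the receptor for interferon-induced chemokines, had 52.4 CPM in recipient and 129 CPM in donor members (-1.30, with -0.51 in the rest), and Tbx21, the T-box factor T-bet, -1.71, with -0.65 in the rest. Within Ccl5-high members Cxcr3 had -0.65 and Tbx21 -0.76 (-1.57 to 0.00), with 0.12 and -0.06 in the rest of that class. Within Ccl5-low members they had -1.62 and -2.12, with -1.32 and -1.20 in the rest of that class.

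The other 4 ran in opposite directions in members and in the rest. Rsad2 had 44 UMIs in 22 recipient members and 77 UMIs in 26 donor members, a log2 ratio of -1.12, with 0.91 in the rest. Within Ccl5-high members its ratio was -0.43 (-1.14 to 0.26) and within Ccl5-low members -1.15 (-2.19 to -0.15). A single donor member held 18 of its UMIs. Cmpk2, its genomic neighbour and also a response gene, had -1.14, with 0.49 in the rest. Within the Ccl5-high and Ccl5-low members Cmpk2 had -0.83 and -0.74. Egr1, an immediate early gene, had -1.11, with 0.94 in the rest, and single donor members held 19 and 18 of its 66 donor UMIs. Hist1h2ap, a histone gene of dividing cells, had -1.72, with 1.03 in the rest, and 1 donor member held 207 of its 270 donor UMIs.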

How the data were processed

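Values are raw counts of UMIs per gene and barcode from 2 libraries, deposited by the authors without normalization, and the labels give 1 library per group. The submitters' processing notes name Cell Ranger, Seurat and mm10, and the software version is 3.0.2, per the file headers. The counting annotation and the cell calling rule are not given in the sources used here. Features that share a symbol were summed, and positions came from GENCODE M21.

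UMIs were summed over the cells of a group and divided by the group's total (CPM). Intervals are exact Poisson for sums, exact conditional Poisson for ratios and exact binomial for shares. PCR copies were collapsed by UMI, and intervals leave out spread between cells and mice. There was no test. Members and the 23 gene lists were chosen with earlier results of these data known. Named genes were, outside the lists, those 12 with the highest and 8 with the lowest ratios, given 100 or more UMIs in each library, and between libraries or Ccl5 classes the 8 at each end. From each list the genes at both ends were taken. Gene models, receptor segments and ribosomal and mitochondrial genes were left out. A few further list genes were named after their values were seen. Doublets were removed only in 1 alternative, at 0.8% per 1000 barcodes from simulated pairs. The ratios and their intervals were tested on simulated gene sums, which did not cover the choice of members or spread between cells. Python 3.11.15, numpy 2.4.6, scipy 1.17.1, pandas 2.3.3 and scikit-learn 1.9.0 were used. A few measured results are not reported here.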

Additional observations from a re-analysis of the deposited data

How the results depend on the processing

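There were 191 recomputed values over 13 results and 18 other settings. Of these, 124 stayed within their limits (counting error for shares, 1.5 times for counts) and 67 moved. Only the recipient over donor share ratio has a sign, and its sign did not change. The larger side of the genes between libraries (69 higher and 63 lower) did depend on the setting. It was 65 and 69 with median-of-ratios scaling and 205 and 210 after thinning. The overlap with the top type I cells (21.7%) moved under none and ranged from 19.75% to 24.96%. For a top 2% of cells the recipient over donor share ratio (0.96) was 0.68, class I genes higher in members numbered 2, genes higher and lower between libraries (69 and 63) 301 and 198, and between Ccl5 classes (366 and 63) 618 and 139. For a top 10% the Ccl5-high share of recipient members (18.1%) was 23.75%, genes higher in members (58) were 37, and those between libraries 30 and 25. Ranked within each library, the share ratio was 0.000437 by construction and 1 class I gene was higher. Thinned to 3500 UMIs, the share ratio was 1.51, the Ccl5-high share of donor members (31.6%) 21.76%, genes between libraries 205 and 210, and genes lower in Ccl5-high members 101. With members chosen on one part of each cell's UMIs and measured on the other, Ccl5-high shares were 23.53% and 37.46% and genes between libraries 219 and 140. With median-of-ratios scaling, genes between classes were 228 and 107. Without ribosomal protein genes in the totals, genes between libraries were 152 and 144, and 168 were lower in Ccl5-high members. With at least 5 CPM, genes higher and lower in members were 105 and 114, class I genes 1, between libraries 478 and 411, and between classes 843 and 217. With at least 100 CPM they were 16 and 7, type I genes 5, GTPases 1, between libraries 3 and 6, and between classes 72 and 14. With any UMI they were 348 and 358, GTPases 10, class I genes 1, between libraries 1245 and 1185, and between classes 1072 and 295. At 2-fold they were 24 and 15, type I genes 10, between libraries 14 and 11, and between classes 133 and 17. Within Ccl5-high cells the share ratio was 0.72, genes in members 148 and 21, type I genes 38, class I genes 5, and between libraries 708 and 391. Within Ccl5-low cells the share ratio was 0.36, genes in members 35 and 3, and type I genes 13. The cause of these moves was not tested beyond the settings' own construction.

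Leaving out barcodes shared by the libraries, the thinned overlap by class, the list sums under other choices of members and the cell cycle sum without its top member were chosen after seeing the data, and the first moved none of the 13 results. Scaling moved the median of all genes by at most 0.0145 for members over the rest. With 1 library a group, leaving out a replicate was not possible. No paired analysis was possible because each group has 1 library. At this depth 1 UMI is 0.372 CPM in recipient and 0.463 CPM in donor members, so genes under a few CPM rest on single molecules.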

Other observations

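The leading T cell receptor beta variable segment was taken per cell where 1 was detected. Among Ccl5-low members, Trbv13-2 led in 28 of 303 recipient members (9.24%, 6.23 to 13.1), against 8.56% of other Ccl5-low recipient cells. Trbv3 led in 21 of 184 Ccl5-low donor members (11.4%, 7.21 to 16.9), against 5.35% of other Ccl5-low donor cells. Trbv16 led in 10 of 70 Ccl5-high recipient members (14.3%, 7.07 to 24.7), against 9.72% of other Ccl5-high recipient cells. Segments are not clonotypes, these segments were picked after their values were seen, and matched receptor libraries were not used here.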
